A study of Chlamydomonas reinhardtii with 5 samples.

Results

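The dose step within γ-irradiation was described by comparing the RNA-Seq library of C. reinhardtii cells exposed to 50 Gy of γ-rays (GR50) directly with that of cells exposed to 6 Gy (GR6), across all genes and without the mock. These are 2 of the 5 libraries of the study, with 1 library per condition. The other 3 libraries, from the mock and from cells X-irradiated with 6 Gy (XR6) or 50 Gy (XR50), served only as points of reference. All cells were of strain CC-125 with the genotype WT. They were grown in acetate-containing TAP medium under constant white light and used in mid-exponential phase. For γ-irradiation, cultures were dispensed without concentrating and exposed to a 60Co source for 1 h at either dose, so that dose and dose rate rose together from GR6 to GR50 and cannot be told apart. X-irradiated cells were concentrated in smaller tubes, and their exposure was shorter at 50 Gy than at 6 Gy. The age of the cells and the time between exposure and harvest for RNA are not given in the sources used here.

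Ionizing radiation breaks and oxidizes DNA. Cells answer by raising transcripts of the DNA damage response (DDR), whose products find the lesion, process the DNA ends and repair them. Double-strand breaks are repaired by homologous recombination, in which replication protein A (RPA) coats the single strand before an intact copy is used as template, or by end joining, in which Ku binds the broken ends. Reactive oxygen formed in irradiated water also engages glutathione and other thiols, for which cysteine is the building block.

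GR6 held 19037167 reads counted on genes and GR50 held 20330055, within or at the edge of the range of 18364833 to 20330055 over the 5 libraries. The unaligned share of reads was 41.8% in GR6 and 37.7% in GR50, in a range of 32.2% to 41.8%. Counts were converted to CPM, a value per common number of reads, with the TMM scaling of edgeR, and a count of 3 corresponded to 0.156 CPM in GR6 and 0.149 CPM in GR50. Of 17742 genes, 13980 averaged 10 counts or more over GR6 and GR50 and were compared. Each log2-transformed fold change is followed in parentheses by the exact 95% interval that the counts on both sides allow. Such an interval holds counting error alone, and because PCR copies were not marked with molecular identifiers, reads are not independent molecules. With 1 library per dose, no test of the dose was possible, and the spread between cultures is unknown. In these bulk samples, a change in the mix of cell states in the culture and a change in RNA per cell cannot be told apart.

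From GR6 to GR50, more genes were higher than lower. In GR50, 1273 genes were more than 2-fold higher, 9.11% of those compared, and 438 were more than 2-fold lower, 3.13%. Higher genes thus made up 74.4% of the genes past 2-fold. The excess was larger at stricter limits. More than 4-fold, 276 genes (1.97%) were higher and 31 (0.222%) lower, and more than 8-fold, 41 (0.293%) were higher and 3 (0.0215%) lower. With the whole counting interval beyond 2-fold, 681 genes (4.87%) were higher and 46 (0.329%) lower. Smaller differences were common in both directions, as the interval lay above no change for 3872 genes (27.7%) and below it for 3425 (24.5%).

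The bulk of the transcriptome moved little. The median log2-transformed fold change over all genes compared was -0.00, and 64.1% of them, 8959 genes, lay within 0.5 on the log2 scale of no change. The tail was longer upwards, as the 5th percentile was -0.86 and the 95th was 1.39. In the X-ray step from XR6 to XR50, over the 13649 genes that averaged 10 counts or more in both pairs of libraries, these percentiles were -0.80 and 0.73, and 75.2% of genes lay within 0.5.

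Lower genes had fewer counts than higher ones. Among genes averaging 10 to 50 counts, 10.5% were more than 2-fold higher and 9.18% lower, so that both directions were about as frequent. Between 50 and 200 counts, 8.38% were higher and 2.10% lower. Between 1000 and 5000 counts, 9.72% were higher and only 0.425% lower. The median mean count was 168 for the higher genes and 175 for all genes, but 27 for the lower genes, whose ratios therefore carry the wider intervals.

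**Figure D1:**
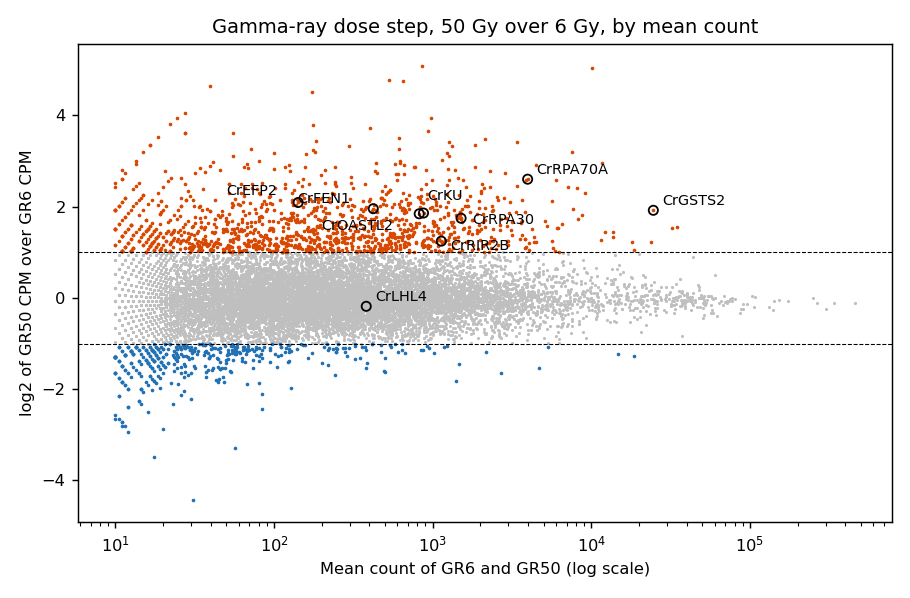
The log2-transformed fold change from GR6 to GR50 of each of the 13980 genes is plotted against its mean count in the 2 libraries on a log scale, with genes more than 2-fold higher in red and more than 2-fold lower in blue, dashed lines at 2-fold and 9 annotated ORFs circled. The 1273 higher genes spread over all counts, whereas most of the 438 lower genes lie at low counts, where their median mean count was 27.

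Annotation was limited to ORFs that the study names, 14 of which are described here, since the reference table gave a symbol for none of the 17742 gene IDs. The study chose these ORFs on these same libraries by their change from the mock, so that their direction is not independent evidence. Positions are those of the v5.5 assembly at NCBI. Of the 14 ORFs, 9 averaged 10 counts or more, and 8 of these were more than 2-fold higher in GR50 than in GR6, against 9.11% of all genes compared, and 0 were lower. Their median log2-transformed fold change was 1.86, beside -0.00 over all genes. The 6 DDR genes among them (CrRPA70A, CrRPA30, CrKU, CrFEN1, CrGSTS2 and CrOASTL2) were all more than 2-fold higher, by 1.75 to 2.60 on the log2 scale. The study marked genes of this group for a DDR role or for induction with dose in these libraries, so that their count is a description of the choice as well.

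Single-strand DNA binding was represented by 2 ORFs. CrRPA70A (CHLRE_17g718850v5, chromosome 17, 2796048 to 2801724), a subunit of replication protein A, had 1080 counts in GR6 and 6862 in GR50, beside 107 in the mock, 1588 in XR6 and 3391 in XR50. GR6 was below XR6, whereas GR50 was above XR50. Its step was 2.60 (2.51 to 2.70), from 56.1 to 341 CPM, and was the largest of the 9 ORFs. CrRPA30 (CHLRE_02g100000v5, chromosome 2, 4442875 to 4447323), the smaller RPA subunit of the list, had 670 counts in GR6 and 2353 in GR50, beside 106 in the mock, 592 in XR6 and 1853 in XR50. Its step of 1.75 (1.62 to 1.87) was smaller than that of CrRPA70A, and the counting intervals of these subunits do not overlap.

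End joining and flap processing followed. CrKU (CHLRE_10g423800v5, chromosome 10, 857515 to 867610), which encodes the DNA end-binding protein Ku, had 365 counts in GR6 and 1387 in GR50, beside 44 in the mock, 428 in XR6 and 920 in XR50, a γ-ray step of 1.86 (1.69 to 2.03). CrFEN1 (CHLRE_03g145687v5, chromosome 3, 615858 to 618689), a nuclease of the Rad2 family that cuts DNA flaps in replication and base excision repair, had 167 counts in GR6 and 678 in GR50, beside 64 in the mock, 252 in XR6 and 717 in XR50. Both were lower in GR6 than in XR6 in counts, but in GR50 only CrKU exceeded XR50. The step of CrFEN1 was 1.96 (1.71 to 2.21). Deoxyribonucleotide supply was represented by CrRIR2B (CHLRE_12g509400v5, chromosome 12, 2091189 to 2096175), the small subunit of ribonucleotide reductase, with 652 counts in GR6 and 1617 in GR50, beside 228 in the mock, 696 in XR6 and 952 in XR50. At 1.24 (1.11 to 1.38) it had the smallest step of the 8 ORFs that were higher.

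The thiol genes and an elongation factor also stood higher in GR50. CrGSTS2 (CHLRE_16g682725v5, chromosome 16, 3594796 to 3597627), a glutathione S-transferase that conjugates glutathione to reactive compounds, had 9925 counts in GR6 and 39318 in GR50, beside 3212 in the mock, 8231 in XR6 and 24475 in XR50. It held the most counts of the 9 ORFs in every library, and its step of 1.92 (1.89 to 1.95) had the narrowest interval. In CPM it went from 516 to 1952, which placed it among the 5 largest rises in CPM of all genes. CrOASTL2 (CHLRE_16g664250v5, chromosome 16, 2961143 to 2963947), a cysteine synthase, had 346 counts in GR6 and 1300 in GR50, beside 95 in the mock, 465 in XR6 and 1135 in XR50, a step of 1.84 (1.67 to 2.02). CrEFP2 (CHLRE_06g263050v5, chromosome 6, 1866873 to 1869495), a mitochondrial elongation factor P, had 52 counts in GR6 and 232 in GR50, beside 23 in the mock, 66 in XR6 and 138 in XR50. Its step of 2.09 (1.65 to 2.55) was above 4-fold, as was that of CrRPA70A.

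CrLHL4 (CHLRE_17g740950v5, chromosome 17, 6033333 to 6035915), a light-harvesting-like gene induced by high light, was the exception. It had 397 counts in GR6 and 366 in GR50, beside 831 in the mock, 360 in XR6 and 380 in XR50. All 4 irradiated libraries lay close together and below the mock, and the γ-ray step of -0.18 (-0.39 to 0.02) was not detectable at this depth. The 5 remaining ORFs had too few counts to be compared. CrZSP2, a lectin-like protein of the zygote cell wall, had 4 counts in GR6 and 10 in GR50, and CrADG, a DNA repair glycosylase, had 8 and 5. The CrHTR2 copy on chromosome 12 (CHLRE_12g505500v5), which encodes histone H3, had 6 and 7 counts, the copy on chromosome 6 (CHLRE_06g275750v5) had 1 and 0, and CrVMPL1, an R-SNARE, had 0 and 1. Reads of histone genes with near-identical copies can align to several places. Such reads had their own counter among the unassigned reads, with 3.06% of reads in GR6 and 3.73% in GR50. None of the intervals of these 5 ORFs is short enough to exclude either direction.

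**Figure D2:**
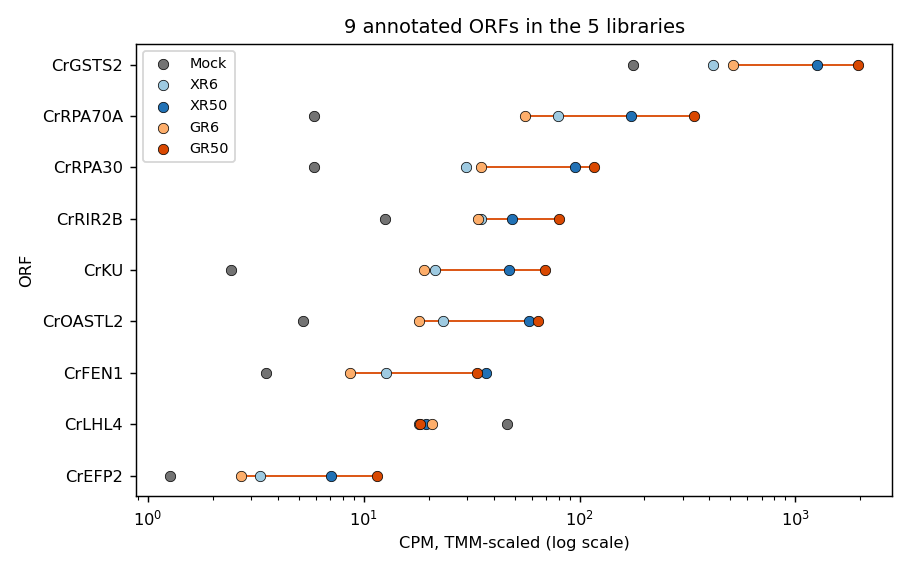
TMM-scaled CPM on a log scale of the 9 annotated ORFs in the 5 libraries, 1 point per library, with a line from GR6 to GR50. For 8 ORFs GR50 lies to the right of GR6, from 1.24 on the log2 scale for CrRIR2B to 2.60 for CrRPA70A, and for CrLHL4 the irradiated libraries lie together to the left of the mock.

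The same dose step under X-rays uses none of the libraries behind the γ-ray step and was set beside it. For CrRPA30 the X-ray step was 1.67 (1.54 to 1.81), and the γ-ray step exceeded it by 0.07 (-0.11 to 0.25), which is within the counting error. The γ-ray step was larger beyond the counting error for the 7 other ORFs that were higher. The difference was smallest for CrGSTS2, at 0.32 (0.27 to 0.37), and largest for CrRPA70A, at 1.48 (1.35 to 1.61), whose X-ray step was 1.12. It was 1.00 (0.39 to 1.61) for CrEFP2, 0.77 (0.57 to 0.96) for CrRIR2B and 0.73 (0.49 to 0.96) for CrKU. CrOASTL2 differed by 0.53 (0.30 to 0.76) and CrFEN1 by 0.42 (0.10 to 0.74). The differences between steps were not run under the alternative scalings or length bins. Which of them lie beyond the counting error may therefore depend on the scaling. Radiation type, concentration of the cells and exposure time differed together between these steps and cannot be told apart. The study also measured DDR genes by RT-qPCR in replicated experiments. It described transcript levels that rose with dose and seldom depended on whether X- or γ-rays were used. CrEFP2 and CrRIR2B were not among the genes it measured in this way. The differences given here rest on 1 library per condition.

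Over all 13649 genes compared in both, the correlation of the γ-ray step with the X-ray step was 0.0581 by Pearson and -0.0435 by Spearman, values that describe genes measured in the same 4 libraries and not independent replicates. The genes past 2-fold in the γ-ray step were then looked up in the X-ray step. Of the genes more than 2-fold higher in GR50, 1199 had enough counts in the X-ray libraries, and 720 of them (60.1%) were higher in XR50 than in XR6, against 48.9% of all 13649 genes. More than 2-fold higher in XR50 were 143 (11.9%), against 2.46% of all genes, and 51 (4.25%) were more than 2-fold lower, against 2.76%. The median X-ray step of these 1199 genes was 0.15, beside a median γ-ray step of 1.45. Among genes more than 4-fold higher in GR50, 186 of 248 (75.0%) were higher in XR50, and 63 (25.4%) by more than 2-fold. Of the 378 genes more than 2-fold lower in GR50, 209 (55.3%) were higher in XR50, 25 (6.61%) were more than 2-fold lower there and 16 (4.23%) more than 2-fold higher, with a median X-ray step of 0.07. With library totals in place of TMM, the share of the higher genes that were also higher in XR50 was 51.2%, against 35.8% of all genes.

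**Figure D3:**
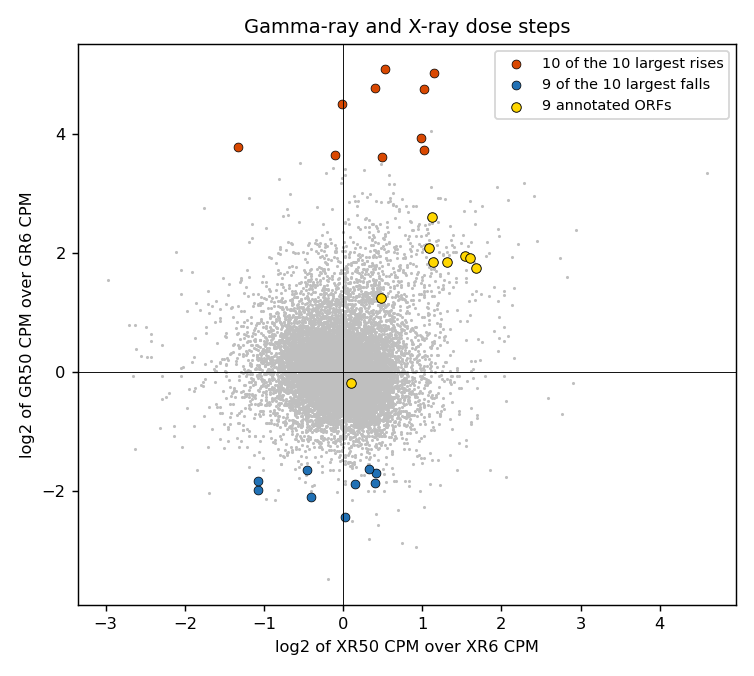
The γ-ray step (GR50 over GR6) is plotted against the X-ray step (XR50 over XR6), both on the log2 scale, for the 13649 genes with enough counts in both, with 9 annotated ORFs, the 10 largest rises and 9 of the 10 largest falls marked. The annotated ORFs other than CrLHL4 lie up and to the right, whereas the largest rises lie between -1.33 and 1.15 on the X-ray axis.

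Of all genes compared, 10778 averaged 50 counts or more over GR6 and GR50, and 936 of these rose past 2-fold between them. With a mean of 10 or more required in XR6 and XR50 as well, 121 genes rose past 2-fold in both dose steps. At 4-fold there were 4 such genes. The filter on GR6 and GR50 is stricter here than in the preceding paragraph. The number of genes passing both filters and the 4-fold X-ray share of all genes are not given, so neither count has a yardstick of its own. The nearest share required a mean of at least 50 counts in both pairs of libraries. There, 104 of 821 genes higher in the γ-ray step (12.7%) were more than 2-fold higher in XR50, against 1.46% of all genes. The 4 genes past 4-fold in both steps were looked up after their values were seen, and no annotation was at hand. CHLRE_03g155350v5 (chromosome 3, 1927266 to 1932452) had 2563 counts in GR6 and 20867 in GR50, beside 93 in the mock, 232 in XR6 and 1215 in XR50, with a γ-ray step of 2.96 and an X-ray step of 2.42. CHLRE_10g428950v5 (chromosome 10, 1515672 to 1519913) had 1435 counts in GR6 and 13688 in GR50 (mock 52, XR6 284, XR50 1358), with steps of 3.19 and 2.28. In both of these genes the γ-ray libraries lay above the X-ray library of the same dose. CHLRE_13g588900v5 (chromosome 13, 3668450 to 3673911) had 24 counts in GR6 and 132 in GR50 (mock 5, XR6 14, XR50 106), with steps of 2.39 and 2.95. CHLRE_03g161450v5 (chromosome 3, 2714372 to 2716037) had 106 counts in GR6 and 495 in GR50 (mock 19, XR6 122, XR50 556), with steps of 2.16 and 2.22. In the latter pair the CPM at each dose differed by less than 2-fold between the radiation types.

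The 10 largest rises among genes averaging 50 counts or more were all in ORFs without an annotation here. CHLRE_16g662450v5 (chromosome 16, 2712326 to 2717089) had 47 counts in GR6 and 1673 in GR50, beside 10 in the mock, 17 in XR6 and 24 in XR50. It was 34.0-fold higher in GR50 than in GR6, or 5.09 (4.67 to 5.54) on the log2 scale, and GR50 stood alone. CHLRE_11g477200v5 (chromosome 11, 2758885 to 2763754) had 575 counts in GR6 and 19667 in GR50 (mock 250, XR6 255, XR50 554), a step of 5.03 (4.91 to 5.15). It went from 29.9 to 976 CPM and held the most counts of the 10, without regard to gene length. CHLRE_16g684000v5 (chromosome 16, 5093870 to 5097935) had 36 counts in GR6 and 1029 in GR50 (mock 9, XR6 30, XR50 39), a step of 4.77 (4.29 to 5.29). CHLRE_09g394658v5 (chromosome 9, 4283645 to 4287700) had 44 counts in GR6 and 1248 in GR50 (mock 14, XR6 42, XR50 84), a step of 4.76 (4.33 to 5.23). In these 4 genes the other 4 libraries together held fewer counts than GR50.

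Among the 6 other large rises, CHLRE_17g702002v5 (chromosome 17, 819639 to 822668) differed in shape. It had 14 counts in GR6 and 333 in GR50, beside 160 in the mock, 156 in XR6 and 151 in XR50, so that its step of 4.51 (3.74 to 5.39) joined the lowest library to the highest. CHLRE_11g467737v5 (chromosome 11, 1458766 to 1468886) had 115 counts in GR6 and 1849 in GR50 (mock 35, XR6 81, XR50 157), a step of 3.94 (3.67 to 4.23). CHLRE_02g075600v5 (chromosome 2, 338610 to 353841) had 23 counts in GR6 and 331 in GR50 (mock 18, XR6 41, XR50 16), a step of 3.78 (3.17 to 4.46), and its X-ray step was -1.33 (-2.26 to -0.47). It was the only one of the 10 rises whose X-ray step was negative beyond the counting error. CHLRE_12g556228v5 (chromosome 12, 9684884 to 9688337) had 54 counts in GR6 and 750 in GR50 (mock 6, XR6 11, XR50 22), a step of 3.73 (3.33 to 4.16). CHLRE_17g733400v5 (chromosome 17, 4664888 to 4675733) had 133 counts in GR6 and 1750 in GR50 (mock 128, XR6 161, XR50 147), a step of 3.65 (3.40 to 3.92). CHLRE_14g615400v5 (chromosome 14, 1130388 to 1132606) had 8 counts in GR6 and 103 in GR50 (mock 14, XR6 13, XR50 18), a step of 3.62 (2.59 to 4.87). In the last 2 genes the mock, both X-ray libraries and GR6 were of similar size and only GR50 was high.

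The 10 largest falls were smaller and took several shapes. CHLRE_17g740800v5 (chromosome 17, 6016456 to 6021274) had 102 counts in GR6 and 11 in GR50, beside 5 in the mock, 10 in XR6 and 3 in XR50, a step of -3.28 (-4.33 to -2.38). CHLRE_10g463550v5 (chromosome 10, 6093116 to 6099757) had 140 counts in GR6 and 27 in GR50 (mock 18, XR6 24, XR50 24), a step of -2.44 (-3.09 to -1.84). In both, GR6 was the high library and GR50 lay near the other 3. GR6 was likewise the high library for CHLRE_12g502600v5 (chromosome 12, 2807687 to 2813938), with 2177 counts in GR6 and 643 in GR50 (mock 327, XR6 354, XR50 165) and a step of -1.83 (-1.96 to -1.70), and for CHLRE_07g342551v5 (chromosome 7, 4152696 to 4153817), with 366 counts in GR6 and 118 in GR50 (mock 93, XR6 59, XR50 77) and a step of -1.70 (-2.01 to -1.40). CHLRE_10g445000v5 (chromosome 10, 3489763 to 3495854), which held the most counts of the falls, had 4040 counts in GR6 and 1361 in GR50 (mock 577, XR6 558, XR50 400) and a step of -1.64 (-1.73 to -1.55). In each of the genes of this paragraph, GR50 was still above the mock and both X-ray libraries in CPM, most so in CHLRE_10g445000v5 and CHLRE_12g502600v5.

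In the 5 other large falls GR50 was the lowest library. CHLRE_16g662600v5 (chromosome 16, 2729467 to 2732309) had 135 counts in GR6 and 33 in GR50 (mock 468, XR6 413, XR50 306), a step of -2.10 (-2.69 to -1.54), and GR6 was also below the other 3. CHLRE_16g673852v5 (chromosome 16, 6387917 to 6402662) had 203 counts in GR6 and 54 in GR50 (mock 145, XR6 181, XR50 84), a step of -1.98 (-2.44 to -1.54), and its X-ray step was also negative, at -1.08. The remaining 3 had an X-ray step within the counting error. CHLRE_03g205100v5 (chromosome 3, 7548714 to 7551216) had 106 counts in GR6 and 30 in GR50 (mock 161, XR6 97, XR50 106), a step of -1.89 (-2.52 to -1.29). CHLRE_13g572550v5 (chromosome 13, 1484034 to 1487112) had 125 counts in GR6 and 36 in GR50 (mock 106, XR6 88, XR50 114), a step of -1.86 (-2.44 to -1.32). CHLRE_01g005534v5 (chromosome 1, 988191 to 989356) had 80 counts in GR6 and 27 in GR50 (mock 74, XR6 73, XR50 90), a step of -1.63 (-2.32 to -0.99).

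**Figure D4:**
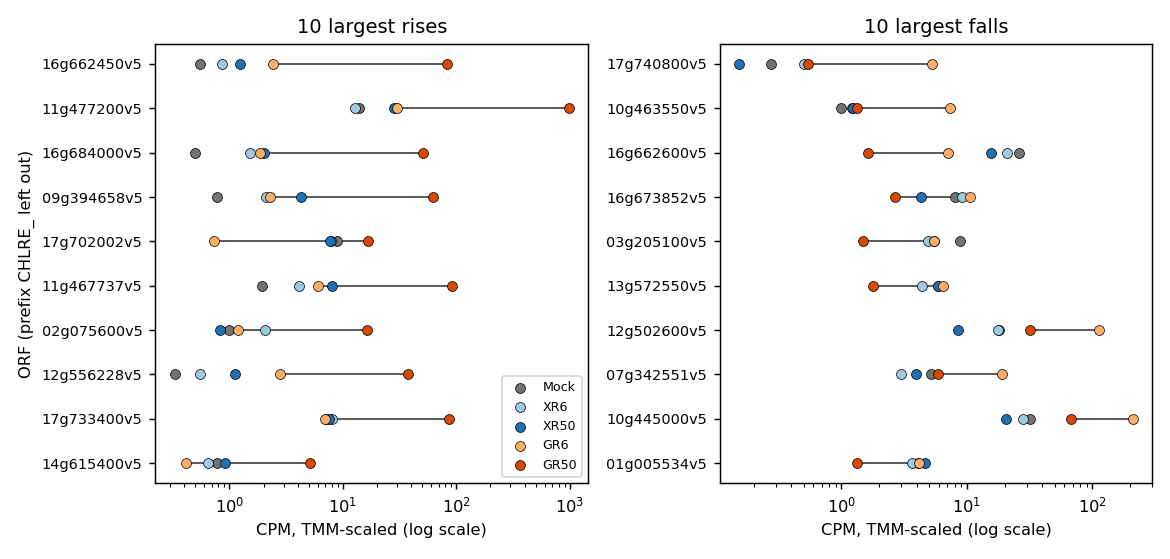
TMM-scaled CPM on a log scale of the 10 largest rises and the 10 largest falls from GR6 to GR50 among genes averaging 50 counts or more, 1 point per library, with a line from GR6 to GR50. GR50 is the highest library for each of the 10 rises, while GR6 is the highest for 7 of the 10 falls.

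The 3 genes more than 8-fold lower included CHLRE_17g740800v5 and 2 with fewer counts, which were singled out after their values were seen. CHLRE_16g673850v5 (chromosome 16, 6381945 to 6387315) had 62 counts in GR6 and 0 in GR50, beside 56 in the mock, 17 in XR6 and 0 in XR50, so that it was at least 21.6-fold lower in GR50 than in GR6 against a floor of 3 counts. It was at 0 in both 50 Gy libraries and lies 601 bases from CHLRE_16g673852v5, which was also lower in both. CHLRE_12g504700v5 had 32 counts in GR6 and 3 in GR50 (mock 27, XR6 29, XR50 25), a log2-transformed fold change of -3.48 (-5.83 to -1.80). Few comparisons rested on the floor, as 16 genes had 3 or fewer counts in GR6 and 10 had so in GR50.

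By absolute level, the largest rises in CPM were in genes with many counts in GR6, and except for CrGSTS2 they carry no annotation here. CHLRE_14g634365v5 (chromosome 14, 4154776 to 4157697) had 17185 counts in GR6 and 52636 in GR50, beside 10845 in the mock, 93743 in XR6 and 11762 in XR50. Its γ-ray step was 1.55 and its X-ray step was -2.97, so that it was highest at 6 Gy under X-rays and at 50 Gy under γ-rays. CHLRE_16g688550v5 (chromosome 16, 3658366 to 3660578) had 16160 counts in GR6 and 48775 in GR50 (mock 1668, XR6 3203, XR50 7036), with steps of 1.53 and 1.16, and rose with dose under both radiation types. CHLRE_08g372100v5 had 29708 counts in GR6 and 58118 in GR50 (mock 52105, XR6 74069, XR50 70625), so that GR6 was the low library and GR50 was near the mock, with a step of 0.90. CHLRE_04g222700v5 had a step of 0.51.

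The largest falls in CPM were small in proportion. CHLRE_09g390615v5 (chromosome 9, 3667844 to 3672182) had 46735 counts in GR6 and 27460 in GR50 (mock 32295, XR6 29829, XR50 32639), a step of -0.83 (-0.86 to -0.81), with GR6 high and GR50 below the mock. The others, CHLRE_11g468356v5, CHLRE_01g066917v5, CHLRE_12g548950v5 and CHLRE_03g182551v5, had steps of -0.24, -0.12, -0.12 and -0.26. These were the only 4 of the 10 whose steps stayed under 0.5 in size, and none of them approached 2-fold.

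The position of GR6 and GR50 relative to the range of the mock, XR6 and XR50 shows which library set a gene apart. The genes were chosen by the ratio of GR50 to GR6, so that these counts are a description. Of the 1273 higher genes, GR50 was above the range of the other 3 libraries in 1074 (84.4%, against 34.1% of all genes compared), while GR6 was within it in 640 (50.3%, against 42.8%), below it in 340 (26.7%, against 28.1%) and above it in 293 (23.0%, against 29.1%). The most frequent pattern, in 577 genes (45.3%, against 12.3% of all genes), was GR6 within the range and GR50 above it. Of the 438 lower genes, GR6 was above the range in 261 (59.6%, against 29.1% of all genes) and GR50 below it in 289 (66.0%, against 31.2%). GR6 above and GR50 below occurred in 124 of them (28.3%, against 3.13%), GR6 within and GR50 below in 117 (26.7%, against 9.42%), and GR6 above and GR50 within in 93 (21.2%, against 7.25%).

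The X-ray libraries and the mock, none of which enters the γ-ray step, were compared for the same genes. Of the 1273 genes more than 2-fold higher in GR50 than in GR6, 373 (29.3%) were more than 2-fold above the mock in XR6 and 396 (31.1%) in XR50, against 7.34% and 5.25% of all genes compared. Their median log2-transformed fold change from the mock was 0.52 in XR6 and 0.44 in XR50. Of the 438 lower genes, 54 (12.3%) were more than 2-fold below the mock in XR6 and 59 (13.5%) in XR50, against 3.35% and 3.10% of all genes. Both comparisons share the 1 mock library.

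Neighbours of genes past 2-fold shared the direction of the γ-ray step more often than all genes did, although most did not pass 2-fold themselves. Over 11568 pairs of adjacent genes that were both compared, a neighbour of a gene more than 2-fold higher was itself more than 2-fold higher in 20% of cases, against 9.03% of all genes in these pairs. For lower genes the share was 7.45%, against 3.02%. With under 500 bases between the genes it was 21.7% for higher genes, against 9.19%, and with 500 bases or more it was 13.5%, against 8.49%. For lower genes it was 8.65%, against 3.10%, under 500 bases. At 500 bases or more, lower genes showed no such excess, with 2.80%, against 2.73%, and only 2 pairs in which both were lower. Adjacent genes can overlap or read into each other, and the sources used here do not state the strand setting of the counting, so that reads of close neighbours may be shared and their part in the result was not tested.

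The neighbours of the genes described above were mixed, and those given here were looked up after their values were seen. Both neighbours of CrFEN1 were higher, CHLRE_03g145667v5, 100 bases away, with 8 counts in GR6 and 60 in GR50 (2.84, 1.77 to 4.12) and CHLRE_03g145707v5, 2 bases away, with 13 and 130 (3.26, 2.43 to 4.20). Both averaged fewer than 10 counts in the X-ray libraries, where no step is given for them. CHLRE_16g664301v5, 160 bases from CrOASTL2, had 1066 counts in GR6 and 6702 in GR50, beside 30 in the mock, 1750 in XR6 and 2705 in XR50, and its step of 2.59 (2.49 to 2.68) exceeded that of CrOASTL2, whereas the neighbour on the other side was lower, at -0.40 (-0.54 to -0.26). CHLRE_06g263100v5, 183 bases from CrEFP2, had 322 and 1514 counts in GR6 and GR50 (2.17), and the other neighbour of CrEFP2 was at 1.46 (1.20 to 1.72). CHLRE_12g509450v5, 543 bases from CrRIR2B, had 163 and 779 (2.19), while the other neighbour of CrRIR2B was at -0.26 (-0.42 to -0.10). The neighbours of CrKU had steps of 0.20 (-0.44 to 0.84) and 1.39 (1.00 to 1.79). The neighbours of CrRPA70A, CrRPA30 and CrGSTS2 had steps between -0.51 and 0.42. Among the unannotated rises, CHLRE_16g683950v5, 102 bases from CHLRE_16g684000v5, had 316 and 3365 counts (3.35, 3.18 to 3.52). The neighbour on the other side of CHLRE_16g684000v5 was at 1.62 (1.10 to 2.17). The neighbours of CHLRE_16g662450v5 had steps of 0.13 (-0.11 to 0.37) and 1.43 (1.12 to 1.73). Those of CHLRE_11g467737v5 were at 0.17 (-1.10 to 1.48) and 2.35 (2.09 to 2.61). For CHLRE_02g075600v5 they were at 1.03 (0.07 to 2.06) and 2.02 (1.89 to 2.15), and for CHLRE_12g556228v5 at -0.03 (-0.15 to 0.10) and 1.36 (0.95 to 1.78). The neighbours of CHLRE_11g477200v5 had steps of -0.58 and -0.30, both within the counting error. Of those of CHLRE_09g394658v5, 1 was lower, at -0.38 (-0.59 to -0.18), and the other was at 1.03 (-0.35 to 2.57). CHLRE_17g733350v5, 4 bases from CHLRE_17g733400v5, was at 1.42 (0.33 to 2.63), and CHLRE_14g615450v5, 3 bases from CHLRE_14g615400v5, at 0.33 (-0.24 to 0.91). The neighbours of CHLRE_17g702002v5 had too few counts to be compared. Neighbours of the largest falls were mixed as well. More than 2-fold lower were CHLRE_07g342552v5 (-1.53, -1.77 to -1.30), CHLRE_16g662650v5 (-1.65, -3.47 to -0.12) and CHLRE_16g673850v5, given above. CHLRE_16g662550v5, beside CHLRE_16g662600v5, was more than 2-fold higher, at 1.81 (1.07 to 2.63). The other neighbours of falls that could be compared had steps between -0.52 and 0.84.

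Consecutive genes more than 2-fold higher formed 30 runs of 3 genes and 4 runs of 4 genes, and lower genes formed 2 runs of 3 genes. Higher genes made up 9.03% and lower genes 3.02% of the genes in adjacent pairs, so that these numbers of runs cannot be compared directly. The 4 longest runs were on chromosome 3 (7774560 to 7797230, steps of 1.33 to 2.17), chromosome 6 (5846105 to 5879338, 1.12 to 2.52), chromosome 10 (5637743 to 5649962, 1.07 to 3.18) and chromosome 12 (3965708 to 3984823, 1.20 to 2.26). Higher genes were otherwise spread over the genome. Among the chromosomes, their share ranged from 7.76% of the genes compared on chromosome 7 to 12.0% on chromosome 15, with 15.5% of the 110 genes whose chromosome is listed as unknown, and that of lower genes from 1.38% on chromosome 11 to 4.12% on chromosome 17.

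Gene length moved with both dose steps, in opposite directions. In 5 groups of about equal size, the median γ-ray step went from -0.06 in the shortest genes (426 to 2842 bases) to 0.07 in the longest (8046 to 108752 bases), while the median X-ray step went from 0.21 to -0.20. The share of genes more than 2-fold higher in GR50 changed little, from 7.76% to 9.49%, and the share more than 2-fold lower fell from 4.39% to 1.25%. After each log2-transformed fold change was centred on the median of genes of like length, 1290 genes were higher and 438 lower.

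**Figure D5:**
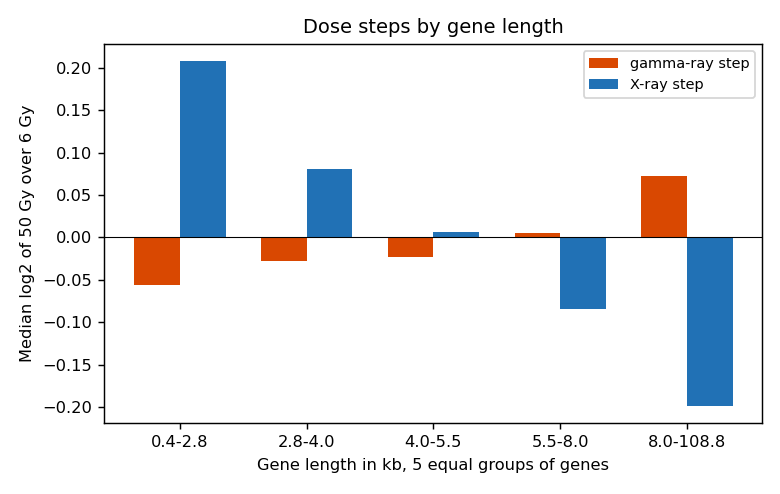
Median log2-transformed fold change from 6 to 50 Gy in 5 groups of genes of increasing length, for the γ-ray step and the X-ray step over the 13649 genes compared in both. The bars run from -0.06 to 0.07 for γ-rays and from 0.21 to -0.20 for X-rays.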

How the data were processed

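Of 5 RNA-Seq libraries, GR6 and GR50 carry the comparison and the others serve as reference. The authors prepared stranded paired-end libraries, checked reads with FastQC 0.11.5, trimmed them with Trimmomatic 0.36, mapped them with HISAT2 2.2.1 to the NCBI v5.5 genome and counted them on genes with HTSeq 0.11.3. The deposited values are raw counts of 17742 genes, followed by 5 counters of unassigned reads, which were left out of the totals. Reads on genes made up 49.3% in GR6 and 51.9% in GR50, and ambiguous reads 0.485% and 0.561%. Although the study mentions biological replicates, each condition is represented here by a single column, and whether it pools cultures is not stated.

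Counts were scaled to CPM with TMM factors of all 5 libraries (edgeR 4.0.16, R 4.3.3), 1.01 for GR6 and 0.991 for GR50, and log2-transformed ratios were taken without a prior count. A count of 3 or fewer on one side was set to a floor of 3. Intervals are exact Clopper-Pearson 95% intervals of the 2 counts, and differences between steps have a normal-approximation interval of 4 counts. A gene was counted as higher or lower past 2-fold. No p-value was computed. The calculation was tested on simulated counts that held counting error alone, as the intervals assume. That run checks the arithmetic and cannot bear on the spread between cultures or on PCR copies. Alternatives were library totals, DESeq2 1.42.0 size factors, TMM of the pair alone, other filters and thresholds, a prior count of 1, GR50 thinned to the total of GR6 and, chosen after seeing the data, centring on 20 bins of gene length.

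Genes named in the text were 14 ORFs of the study's list (1 further ORF of it is not reported here), the 10 largest rises and 10 largest falls among genes averaging 50 counts or more, and the 5 largest rises and 5 largest falls in CPM. The rule held unannotated names to 10 rising and 10 falling, and the unannotated genes of the CPM lists, the neighbours, the runs and the genes higher in both steps go beyond it. These members and lists were chosen with earlier results of these data known. A further 17 gene lists by symbol or product, and families by protein similarity, were planned but not used, because 0 IDs had a symbol or description in the reference table, where all 17742 IDs were found.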

Additional observations from a re-analysis of the deposited data

Results flagged for a closer look

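For 9 of the named genes, the γ-ray step and the X-ray step went in opposite directions with both counting intervals clear of no change. With 1 library per condition the difference was not tested, and only the counting intervals are known. X-ray steps of single genes were not run under the alternative scalings or length bins, although the TMM factors of XR6 and XR50 were 1.08 and 0.982. Small X-ray steps may therefore depend on the scaling. CHLRE_02g075600v5 was higher in GR50 than in GR6 by 3.781 on the log2 scale and had an X-ray step of -1.331. CHLRE_14g634365v5 had a γ-ray step of 1.548 and an X-ray step of -2.968, the widest gap among the genes with the largest changes in CPM. XR6 was its highest library, at 4712 CPM, followed by GR50 at 2613 CPM, and GR6 at 893 CPM was the next. For CHLRE_08g372100v5 the γ-ray step was 0.9017 and the X-ray step -0.0417, and for CHLRE_04g222700v5 the values were 0.5062 and -0.4215.

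The 5 largest falls in CPM had the opposite arrangement. The γ-ray step was -0.8336 for CHLRE_09g390615v5, with an X-ray step of 0.1569. It was -0.2357 for CHLRE_11g468356v5, -0.1194 for CHLRE_01g066917v5, -0.1161 for CHLRE_12g548950v5 and -0.26 for CHLRE_03g182551v5, whose X-ray steps were 0.1952, 0.4279, 0.3627 and 0.576. CHLRE_01g066917v5, CHLRE_12g548950v5 and CHLRE_03g182551v5 are in the shortest group of genes, with median steps of -0.06 for γ-rays and 0.21 for X-rays. After centring by length, their γ-ray steps were -0.08, -0.08 and -0.19. CHLRE_11g468356v5 is in the longest group, with medians of 0.07 and -0.20, and its γ-ray step moved to -0.35.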

How the results depend on the processing

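Under library totals, DESeq2 size factors, TMM of the pair, a prior count, thinning and length bins, between 1218 and 1290 genes were more than 2-fold higher and between 407 and 488 lower, near the reported 1273 and 438. The lower count depended on the filter, with 734 at 1 count or more and 144 at a mean of at least 50, against 1432 and 936 higher. At 4-fold, 276 genes were higher and 31 lower, and with the whole interval beyond 2-fold 681 and 46. Of the ORFs, 2 passed 4-fold, against 8 at 2-fold. Of the genes higher in GR50, 60.1% were higher in XR50. The share was 51.2% with library totals (35.8% of all genes), 65.0% at a mean of at least 50 (50.2%) and 75.0% at 4-fold (48.9%). It was 59.7% after centring by length (48.5%). None of the 38 named genes compared reversed under any alternative run on them. Their values left their counting intervals for 9 genes with library totals, 4 with DESeq2 size factors and 6 with length bins. Shifts in these runs were at most 0.11 on the log2 scale. Larger shifts, of up to 0.17 with GR50 thinned and 0.16 with a prior count of 1, left all 38 genes within their intervals.

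No paired analysis was possible because each condition has 1 library, and with 1 library there was no replicate to leave out. Depth limits the lower genes most, since their median mean count was 27. The alternatives move the scaling and the filters, and do not stand in for the unknown spread between cultures. The gene lists by symbol and the protein families were not run.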
